A study of Mus musculus with 8 samples.

Results

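Fas, Fadd, Ripk1, Cflar, Casp8, Casp9 and Casp6 encode a death receptor, the proteins that assemble on it and caspases that execute apoptosis. They were taken by symbol as a named set of 7 genes among 19826 listed in the deposited table, by function and not by a threshold on a measured value, though with earlier results of these data known, and all 7 passed the filter on low values that left 13847 genes for testing. The RNA came from regulatory T cells (Treg), a CD4+ lineage defined by the transcription factor Foxp3 that restrains other immune cells. They were sorted as CD4+ YFP+ cells by flow cytometry straight from spleen and peripheral lymph nodes of untreated C57BL/6 mice. The 4 libraries labelled Pdpk1 KO came from mice of genotype Foxp3 YFP-Cre/+ Pdpk1 FL/FL, in which loxP sites flank part of Pdpk1. The 4 WT libraries came from Foxp3 YFP-Cre/+ mice with Pdpk1 +/+, so every library carries the same Cre allele, read from the Foxp3 promoter on a single X chromosome. In mice with 1 such allele, Treg that do not use the Cre-bearing X chromosome remain, and they are YFP-. The labels state neither the age of the mice nor whether a library is a single mouse. The p-values therefore reflect variation among the libraries, which may be technical.

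In the extrinsic pathway of apoptosis, Fas ligand on a neighbouring cell clusters the receptor Fas, whose death domain recruits the adaptor Fadd. Fadd binds procaspase-8, which cuts itself into an active initiator caspase, while c-FLIP, the product of Cflar, resembles caspase-8 without its catalytic activity and limits that step. The kinase Ripk1 joins the complexes of tumour necrosis factor receptors, where it can direct cells to survival, to caspase-8 or to necroptosis. Caspase-9 is the initiator of the mitochondrial pathway and caspase-6 an effector cut downstream of initiators. Fas is known for removing repeatedly stimulated T cells. PDK1, encoded by Pdpk1, activates AKT and related kinases below PI3K, a pathway linked to T cell survival.

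Among the 7 genes, Casp8 was higher in Pdpk1 KO Treg, by 1.26-fold, and the other 6 did not pass the threshold. Ripk1, Fadd and Fas had positive log2 changes and Cflar, Casp6 and Casp9 negative ones, none past an adjusted p of 0.05. With limma on log2(normalized count + 1), 1 of 7 genes was higher and 0 were lower, where 9.47% of all genes tested were called in either direction, 4.41% of them higher and 5.06% lower. At an unadjusted p under 0.05, 2 were higher and 0 lower, against 23.0% of all genes in either direction, 10.8% higher and 12.2% lower. Both edgeR and DESeq2 on recovered reads gave the same count of 1 higher and 0 lower after adjustment, where they called 9.06% (edgeR) and 13.2% (DESeq2) of all genes. With macrophage markers as a covariate, or without the 3 libraries highest in them, limma called 0 of the 7, against 3.89% and 3.41% of all genes (3.73% and 3.31% with Axl taken off the marker list). The groups did not overlap for 2 of the 7 genes, Casp8 and Ripk1, against 15.3% of all genes tested. The median log2 change was 0.20 over the 7 genes and -0.01 over all genes tested. A called share of 1 in 7 is near the background and is no result about the set. In bulk RNA of this kind, fewer cells of a type and less RNA per cell cannot be told apart.

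Depth lay between 17448095 and 26299577 recovered reads per library. Pdpk1 (chromosome 17, 24073680 to 24150924) had 1983 ± 365 normalized counts in Pdpk1 KO and 2223 ± 320 in WT (SD, n = 4 each, exact two-sided permutation p = 0.286). Its value sums all exons, the deleted part among them, so it does not check the labels. Foxp3 had 5355 ± 743 in Pdpk1 KO and 5086 ± 740 in WT (exact permutation p = 0.6). Of 8 Treg markers (among them Cd3e, Cd4, Foxp3 and Ctla4), 8 were listed and 0 were at 0 in any library. Their means were higher in Pdpk1 KO for 2 of the 8. Il2ra, the IL-2 receptor alpha chain, was higher in Pdpk1 KO (log2 change 0.63, limma adjusted p = 0.00114), and Ikzf2, which encodes Helios, was lower (-1.13, limma adjusted p = 4.45e-06). Markers of macrophages moved with the groups. Of 18 listed, 17 had a higher mean in Pdpk1 KO libraries and 7 of 16 tested passed the threshold upward, while Axl was lower. Without Axl they summed to between 1584 and 5494 normalized counts in Pdpk1 KO libraries and between 337 and 1769.8 in WT libraries, and 6 of the 18 were at 0 in at least 1 library. B cell markers summed to between 166 and 305 in Pdpk1 KO and between 364 and 537 in WT libraries, most of it from Cd79b, which was lower in Pdpk1 KO (log2 change -1.17, limma adjusted p = 0.00407), while Blk was at 0 in every library of a group and Fcer2a was not analysed here. The sums of Pdpk1 KO and WT libraries overlapped for markers of CD8 T and NK cells (439 to 735 in Pdpk1 KO and 422 to 620.5 in WT), dendritic cells (20.5 to 64.0 in Pdpk1 KO and 12.4 to 98.4 in WT), neutrophils and monocytes (24.7 to 101 in Pdpk1 KO and 56.2 to 81.2 in WT) and erythroid cells (6.83 to 247 in Pdpk1 KO and 9.38 to 149 in WT). The part of these cell types in the results was not tested.

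**Figure D1:**
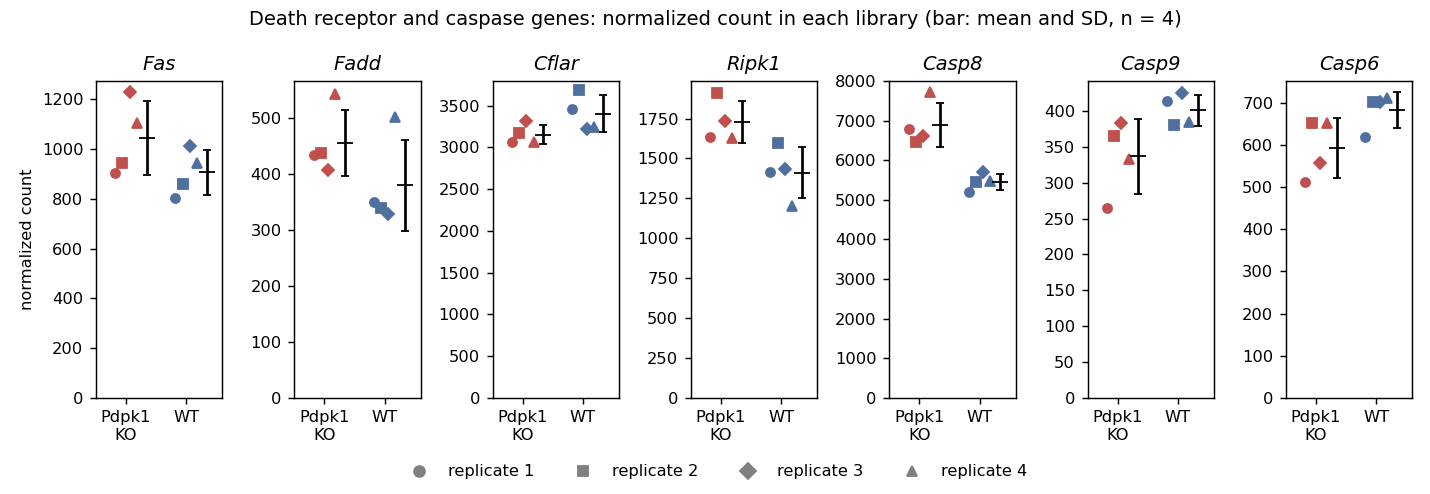
Normalized count of each gene in each library, Pdpk1 KO (red) left of WT (blue), with a linear axis from 0 for each gene; marker shapes are the replicate numbers and the bar is the mean with SD (n = 4). The groups are apart for Ripk1 and Casp8 and overlap for Fas, Fadd, Cflar, Casp9 and Casp6.

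Fas, the receptor at the head of the pathway (ENSMUSG00000024778, chromosome 19, 34290666 to 34327772, plus strand), had 903.1, 942.4, 1227 and 1104 normalized counts in Pdpk1 KO replicates 1 to 4. Its counts in WT replicates 1 to 4 were 804.9, 859.9, 1014 and 944.1. The groups overlapped, with replicate 3 the highest library of each. The log2 change was 0.20 ± 0.12 (SE, 95% interval -0.06 to 0.46, limma adjusted p = 0.377). Without Pdpk1 KO replicate 3 it was 0.12. With the libraries richest in macrophage markers other than Axl left out (3 of Pdpk1 KO, so that only replicate 1 remains) it was 0.0016. Fadd, the adaptor between Fas and caspase-8 (ENSMUSG00000031077, chromosome 7, 144577318 to 144582463, minus strand), had 433.9, 437.2, 407.5 and 542.8 normalized counts in Pdpk1 KO replicates 1 to 4. WT replicates 1 to 4 had 350.6, 339.8, 327.7 and 501.5. WT replicate 4 stood above 3 of the Pdpk1 KO libraries, while the other 3 WT libraries lay below all of them. The log2 change of Fadd was 0.27 ± 0.17 (SE, 95% interval -0.08 to 0.63, limma adjusted p = 0.361). An antisense gene, Faddos, shares 239 exon bases with Fadd and averaged 2.25 normalized counts. The strand setting of the counting is not stated, so reads from the shared bases cannot be told apart.

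Ripk1, the kinase of the tumour necrosis factor receptor complex (ENSMUSG00000021408, chromosome 13, 34002363 to 34037147, plus strand), had 1634, 1911, 1738 and 1629 normalized counts in Pdpk1 KO replicates 1 to 4. The WT libraries had 1417, 1595, 1432 and 1204 in the same order. Every Pdpk1 KO library was above every WT library, though by a narrow margin between Pdpk1 KO replicate 4 and WT replicate 2. The log2 change of Ripk1 was 0.30 ± 0.11 (SE, 95% interval 0.07 to 0.52), and it did not pass the threshold (limma adjusted p = 0.101). With macrophage markers as a covariate it was 0.14, and whether these markers take part in the difference was not tested. Serpinb6a, on the opposite strand, shares 241 exon bases with Ripk1 and averaged 542 normalized counts, and a processed pseudogene, Gm17084, covers 511 of its exon bases.

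Casp8, the initiator caspase of death receptors (ENSMUSG00000026029, chromosome 1, 58795374 to 58847503, plus strand), had 6779.9, 6459.7, 6616 and 7717 normalized counts in Pdpk1 KO replicates 1 to 4. In WT replicates 1 to 4 the counts of Casp8 were 5190.2, 5443, 5697 and 5478. The 4 Pdpk1 KO libraries were all higher than the 4 WT libraries, and Pdpk1 KO replicate 4 was the highest of the 8. The means were 6893 ± 565 in Pdpk1 KO and 5452 ± 208 in WT (SD, n = 4 each). The log2 change was 0.34 ± 0.09 (SE, 95% interval 0.15 to 0.52, limma adjusted p = 0.0249), which ranked 956 by p among the genes tested. The call was lost without any 1 of 5 libraries (Pdpk1 KO replicates 3 and 4, and WT replicates 1, 2 and 4), with log2 changes between 0.28 and 0.35 and adjusted p between 0.0529 and 0.0686. It was also lost with macrophage markers as a covariate (log2 change 0.38, adjusted p = 0.104) and without the 3 libraries highest in them (0.41, adjusted p = 0.158). Without the 3 libraries highest in the markers other than Axl, which leaves only Pdpk1 KO replicate 1 of its group, the log2 change was 0.32. The part of macrophage RNA in the Casp8 difference was not tested. Over all 20 other settings the log2 change lay between 0.28 and 0.41 and the adjusted p between 0.00181 and 0.323.

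**Figure D2:**
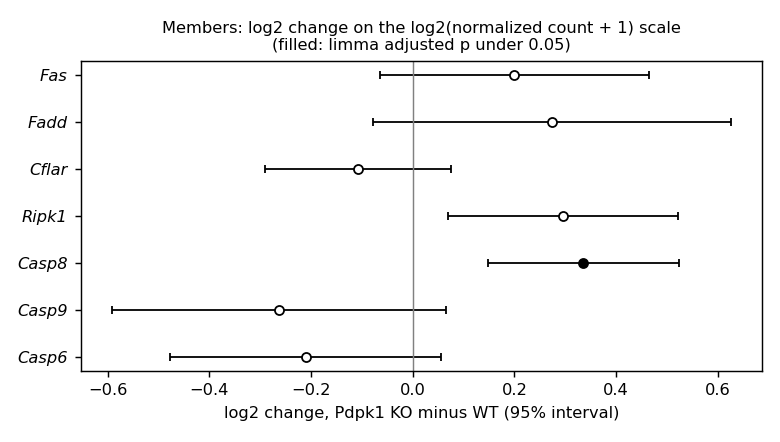
Log2 change of each gene, Pdpk1 KO minus WT, on the log2(normalized count + 1) scale, with its 95% interval from limma; filled points passed an adjusted p of 0.05. Casp8 at 0.34 is the filled point, the interval of Ripk1 runs from 0.07 to 0.52, and those of the other 5 genes include 0.

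**Figure D3:**
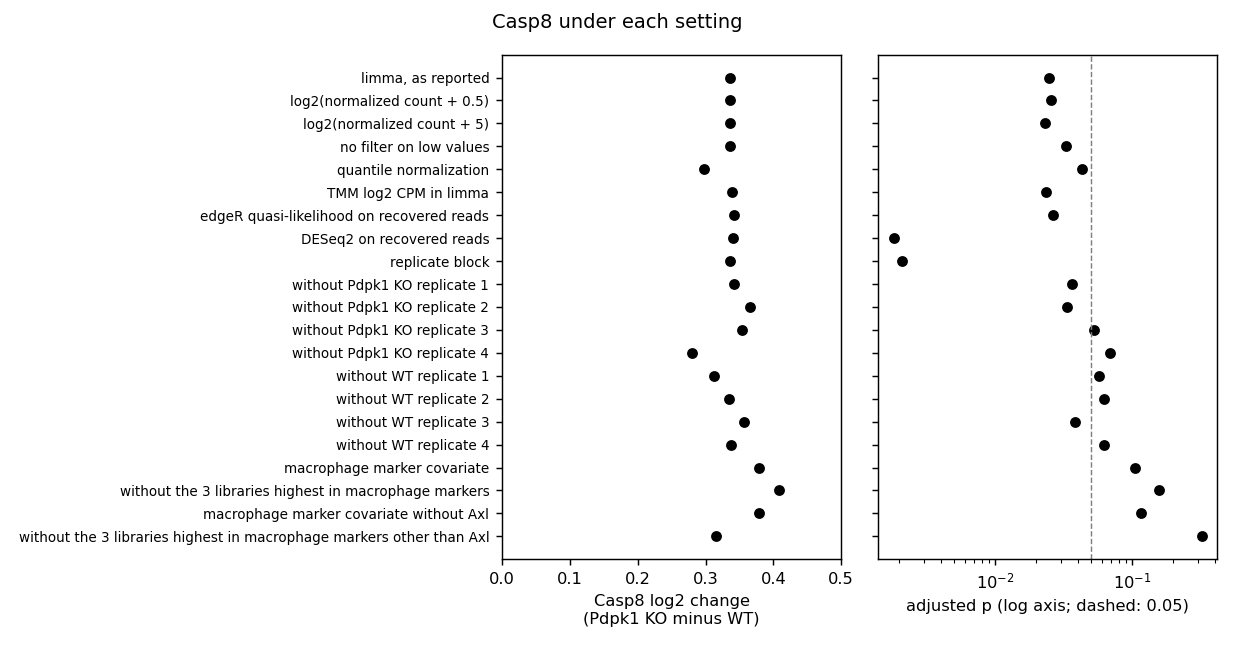
Log2 change of Casp8 (left, linear axis) and its adjusted p (right, log axis, dashed line at 0.05) as reported and under 20 other settings. The log2 change stays between 0.28 and 0.41 while the adjusted p crosses the line in 9 of the 20.

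The 2 other tested genes whose pattern over the 8 libraries was most like that of Casp8 were Armc10 and Cerk, which encodes ceramide kinase. Likeness was measured as the root mean square difference of log2(normalized count + 1), centred on each gene's mean, among 9841 genes with a mean of at least 50 and an established symbol. It was 0.05 for Armc10 and 0.06 for Cerk. Both were chosen for following Casp8 over the same libraries, so their group values are a description. Cerk had 1762 ± 79.7 normalized counts in Pdpk1 KO and 1394 ± 64.4 in WT (SD, n = 4 each, log2 change 0.34). Armc10 had 1915 ± 175 in Pdpk1 KO and 1613 ± 88.6 in WT (log2 change 0.24).

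Cflar, which encodes the caspase-8 inhibitor c-FLIP (ENSMUSG00000026031, chromosome 1, 58711508 to 58758884, plus strand), lies next to Casp8 on the same strand. The ends of the genes are 36489 bases apart, with 0 other listed genes between them. Cflar had 3062, 3173, 3314 and 3065 normalized counts in Pdpk1 KO replicates 1 to 4. Cflar counts in WT replicates 1 to 4 were 3465, 3688, 3216 and 3242. The groups overlapped, since Pdpk1 KO replicate 3 was above 2 WT libraries, and the other 3 Pdpk1 KO libraries were below all of WT. The log2 change of Cflar was -0.11 ± 0.09 (SE, 95% interval -0.29 to 0.07, limma adjusted p = 0.505). The interval leaves out an increase of the size measured for Casp8.

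The count of Casp8 over that of Cflar was 2.21, 2.04, 2.0 and 2.52 in Pdpk1 KO replicates 1 to 4. In WT replicates 1 to 4 it was 1.5, 1.48, 1.77 and 1.69. The ratio was higher in every Pdpk1 KO library than in any WT library, at 2.19 ± 0.24 in Pdpk1 KO and 1.61 ± 0.14 in WT (SD, n = 4 each). It is given as a description, with no test, and since gene length is the same in all libraries it compares groups and not the abundance of the transcripts. Casp8 over Fadd did not separate the groups, with 14.2 to 16.2 in Pdpk1 KO and 10.9 to 17.4 in WT libraries, nor did Casp8 over Fas, with 5.39 to 7.51 in Pdpk1 KO and 5.62 to 6.45 in WT libraries, nor Casp8 over Ripk1, with 3.38 to 4.74 in Pdpk1 KO and 3.41 to 4.55 in WT libraries. Casp9 over Casp8, at 0.0391 to 0.058 in Pdpk1 KO and 0.0699 to 0.0797 in WT libraries, and Casp6 over Casp8, at 0.0754 to 0.101 in Pdpk1 KO and 0.119 to 0.13 in WT libraries, also separated the groups. The separation is therefore not particular to Cflar.

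**Figure D4:**
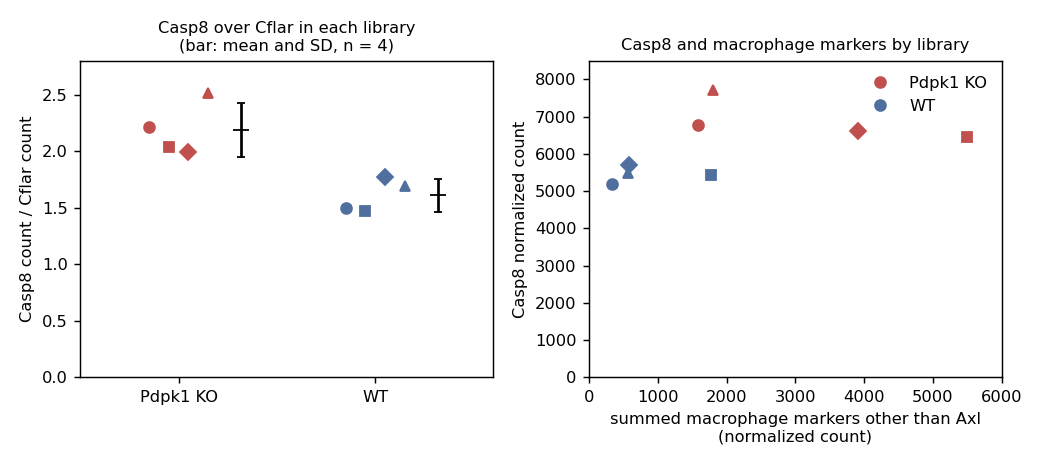
Left, Casp8 count divided by Cflar count in each library, Pdpk1 KO (red) left of WT (blue), with mean and SD (n = 4); the ratio lies between 2.0 and 2.52 in Pdpk1 KO and between 1.48 and 1.77 in WT. Right, Casp8 normalized count against the summed macrophage markers other than Axl, 1 point per library with the same colours and with marker shapes for the replicate numbers; the marker sums run from 1584 to 5494 in Pdpk1 KO and from 337 to 1769.8 in WT, so the groups share only a narrow part of that axis, and the part of macrophage RNA in the Casp8 difference was not tested.

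Promoter windows of Casp8, its neighbour Cflar and Ripk1 are shown because Casp8 and Ripk1 are the genes whose groups did not overlap and Cflar is the adjacent gene that did not rise. They come from RefSeq on GRCm38.p6 and run from 250 bases before to 50 bases after a transcription start. All 7 genes matched, with 8 windows in all, since Ripk1 has 2. Capitals mark matches, on either strand, to FoxO (GTAAACA), STAT (TTCNNNGAA), ETS (CCGGAAG), AP-1 (TGANTCA) or Sp1 (GGGCGG) letters, which can overlap. The windows of Casp8 (chr1:58802252-58802551, plus strand), Cflar (chr1:58711241-58711540, plus strand) and the second of Ripk1 (chr13:34002624-34002923, plus strand) read as follows.
Casp8: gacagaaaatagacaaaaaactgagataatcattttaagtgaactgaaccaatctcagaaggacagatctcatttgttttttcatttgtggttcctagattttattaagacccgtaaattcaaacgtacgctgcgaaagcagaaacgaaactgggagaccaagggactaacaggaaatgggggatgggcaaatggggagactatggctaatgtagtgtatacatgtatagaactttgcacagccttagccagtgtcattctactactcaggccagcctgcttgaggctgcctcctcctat
Cflar: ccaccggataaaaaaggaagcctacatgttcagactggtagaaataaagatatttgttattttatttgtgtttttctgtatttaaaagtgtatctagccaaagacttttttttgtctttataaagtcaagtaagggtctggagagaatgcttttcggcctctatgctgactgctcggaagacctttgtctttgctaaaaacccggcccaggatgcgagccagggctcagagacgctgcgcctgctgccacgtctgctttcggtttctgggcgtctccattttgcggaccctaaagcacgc
Ripk1: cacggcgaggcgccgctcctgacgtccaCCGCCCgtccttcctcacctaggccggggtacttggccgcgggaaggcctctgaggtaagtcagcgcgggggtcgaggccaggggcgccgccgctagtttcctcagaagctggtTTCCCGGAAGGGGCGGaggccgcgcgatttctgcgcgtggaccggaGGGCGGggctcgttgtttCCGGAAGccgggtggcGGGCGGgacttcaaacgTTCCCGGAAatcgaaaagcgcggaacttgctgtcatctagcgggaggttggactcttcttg

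The Casp8 window held 0 of the 5 motifs, as did that of Cflar. Its G and C content was 42.0% with 5 CpG sites, the lowest of the 8 windows, against 45.0% and 12 sites for Cflar and 67.0% and 36 sites for this Ripk1 window. The median over 32851 windows was 52.7% with 7 CpG sites. The annotated Casp8 gene starts upstream of this RefSeq start, so the window is not its only possible promoter. The Ripk1 window held 2 STAT matches, found in 8.3% of all windows, 2 ETS matches (8.86%) and 4 Sp1 matches (35.7%), with a STAT and an ETS match overlapping near base -105. The first Ripk1 window, not printed, held 3 Sp1 matches and 0 STAT or ETS matches. The window of Fas held an AP-1 match (7.81% of all windows) and a STAT match. A FoxO match, present in 3.65% of all windows, was found in 0 of the 8. A match is a description of letters and not of binding.

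Casp9, the initiator caspase of the mitochondrial pathway (ENSMUSG00000028914, chromosome 4, 141793612 to 141815976, plus strand), had 265.4, 364.9, 384.0 and 332.8 normalized counts in Pdpk1 KO replicates 1 to 4. Casp9 counts in WT replicates 1 to 4 were 413.7, 380.4, 425.3 and 384.7. Of the Pdpk1 KO libraries, 3 were below all of WT, and replicate 3 fell just within the WT range. The log2 change of Casp9 was -0.26 ± 0.15 (SE, 95% interval -0.59 to 0.07, limma adjusted p = 0.343). Without Pdpk1 KO replicate 1, the lowest library, it was -0.15. Without the 3 libraries highest in macrophage markers it was -0.45. With Axl off the marker list it was -0.59, in a fit that keeps only Pdpk1 KO replicate 1 of its group. Casp6, an effector caspase (ENSMUSG00000027997, chromosome 3, 129901425 to 129914103, plus strand), had 511.1, 652.0, 556.9 and 651.1 normalized counts in Pdpk1 KO replicates 1 to 4. In WT replicates 1 to 4 the counts of Casp6 were 620.0, 702.5, 701.5 and 710.5. WT replicate 1 stood below its 3 fellows and overlapped with Pdpk1 KO, in which 2 libraries were below all of WT. The log2 change of Casp6 was -0.21 ± 0.12 (SE, 95% interval -0.48 to 0.06, limma adjusted p = 0.349). Casp9 had the fewest reads of the 7 genes, 285 in its lowest library, where counting error alone is 5.92%, and its SD was 15.5% of the mean in Pdpk1 KO.

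Levels of different genes were compared per kilobase of annotated exon. Casp8 was the most abundant of the 7 genes, at 2383 ± 195 normalized counts per kilobase in Pdpk1 KO and 1885 ± 71.7 in WT (SD, n = 4 each). Fas followed at 506 ± 72.7 per kilobase in Pdpk1 KO and 439 ± 44.6 in WT. Cflar stood at 249 ± 9.39 per kilobase in Pdpk1 KO and 269 ± 17.4 in WT, and Ripk1 at 207 ± 15.8 in Pdpk1 KO and 169 ± 19.2 in WT. Fadd, at 117 ± 15.3 per kilobase in Pdpk1 KO and 97.3 ± 20.9 in WT, and Casp6, at 106 ± 12.6 in Pdpk1 KO and 122 ± 7.63 in WT, overlapped in both groups. Casp9 was the lowest, at 64.8 ± 10.02 per kilobase in Pdpk1 KO and 77.2 ± 4.22 in WT. In both groups the libraries' ranges of Casp8, Fas, Cflar, Ripk1 and Casp9 did not overlap with a neighbour in this order. Exon length sums all annotated isoforms, 12669 bases for Cflar and 2893 for Casp8, which lowers the value of a gene with long, rarely used exons.

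The surrounding death pathway was read from 9 lists, of which 59 genes besides the 7 are reported here. Of these 59, 53 were tested. In Pdpk1 KO Treg 1 was higher, 4 were lower and 48 did not pass the threshold, a called share of 9.43% against 9.47% of all genes tested. The median log2 change was -0.12 against -0.01 over all genes, and the groups did not overlap for 9 of the 53, where 15.3% of all genes did not. DESeq2 called 3 higher and 7 lower (13.2% of all genes called), and edgeR 1 higher and 3 lower (9.06%). With macrophage markers as a covariate limma called 0 (3.89% of all genes), and without the 3 libraries highest in them also 0 (3.41%). In the fit of all 8 libraries 7 were higher and 10 lower at an unadjusted p under 0.05, where 23.0% of all genes passed. These counts are near the background and are no result about the lists.

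Of 4 death ligands tested, limma called 2 lower and 0 higher, where 5.06% of all genes were lower. At an unadjusted p under 0.05 limma had 4 lower and 0 higher, where 12.2% of all genes were lower. The list was not tested as a set. In this list edgeR called 1 lower (Tnfsf10) and DESeq2 3 lower (Fasl, Tnfsf10 and Tnf). Tnfsf10, which encodes the ligand TRAIL, had 925.5, 561.0, 623.1 and 822.7 normalized counts in Pdpk1 KO replicates 1 to 4, against 1385, 1201, 1099 and 1076 in WT replicates 1 to 4. Each Pdpk1 KO library was below each WT library (log2 change -0.72 ± 0.15 SE, limma adjusted p = 0.00702). With the macrophage covariate Tnfsf10 was at -0.40 and not past the threshold (adjusted p = 0.273, range over its alternatives 0.000283 to 0.387). Fasl, the ligand of Fas, was a low gene, with 44.7, 49.3, 13.5 and 56.3 normalized counts in Pdpk1 KO replicates 1 to 4 and 98.1, 133, 93.0 and 86.1 in WT replicates 1 to 4. The groups of Fasl did not overlap (log2 change -1.46 ± 0.42 SE, limma adjusted p = 0.0419). The call of Fasl was lost in 11 of 20 alternatives, edgeR and the omission of Pdpk1 KO replicate 3 or of any WT library among them, and without Pdpk1 KO replicate 3 its log2 change was -1.01. Tnf and Lta had log2 changes of -1.07 and -0.47 and did not pass the threshold in limma (adjusted p = 0.0597 and 0.12), though DESeq2 called Tnf, and Tnfsf15 was below the filter. Of the other death receptors, Tnfrsf1a, a receptor of tumour necrosis factor, was at -0.37 (adjusted p = 0.0679) and Tnfrsf25 at -0.17 (adjusted p = 0.413). Tnfrsf21, death receptor 6, named after its values were seen, was a low gene that went the other way. It had 34.4, 49.3, 47.2 and 11.9 normalized counts in Pdpk1 KO replicates 1 to 4, against 1.13, 6.25, 2.76 and 22.8 in WT replicates 1 to 4. The groups of Tnfrsf21 overlapped and it did not pass the threshold (log2 change 2.41 ± 0.80 SE, limma adjusted p = 0.0748), though it did with quantile normalization and without Pdpk1 KO replicate 4 or WT replicate 4. In that list limma called 0 of 4, with 2 at an unadjusted p under 0.05, edgeR called 0 and DESeq2 called Tnfrsf1a. Over all genes, in either direction, limma called 9.47%, edgeR 9.06% and DESeq2 13.2%. At an unadjusted p under 0.05 limma had 23.0% of all genes. The death receptor list was not tested as a set either.

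Among 15 other adaptors and ubiquitin regulators limma and edgeR each called 1 higher and 1 lower and DESeq2 2 higher and 1 lower. Of all genes limma called 9.47%, edgeR 9.06% and DESeq2 13.2%. Traf3, an adaptor that restrains noncanonical NF-kB signalling, had 2005, 1613, 1727 and 1729 normalized counts in Pdpk1 KO replicates 1 to 4, against 2480.1, 2492, 2079 and 2388 in WT replicates 1 to 4 (log2 change -0.42 ± 0.10 SE, limma adjusted p = 0.0154). Without Pdpk1 KO replicate 2 or WT replicate 2 Traf3 was at -0.37 and -0.39 and just short of the threshold (adjusted p = 0.0505 and 0.0513). Daxx, first described as a protein that binds Fas and also a histone chaperone, averaged 3183 ± 426 in Pdpk1 KO and 2479.8 ± 136 in WT (SD, n = 4 each, log2 change 0.35, limma adjusted p = 0.0434). It lost its call in 13 of 20 alternatives, which include the omission of each library other than Pdpk1 KO replicate 2, and lay between 0.27 and 0.59 over all of them. Ripk3, the kinase that acts with Ripk1 in necroptosis, had 789.5, 784.6, 782.5 and 772.3 normalized counts in Pdpk1 KO replicates 1 to 4. In WT replicates 1 to 4 the counts of Ripk3 were 1140, 992.3, 1238 and 1019.6. Each Pdpk1 KO library was below each WT library (log2 change -0.48 ± 0.11 SE, limma adjusted p = 0.00938). Ripk3 over Ripk1 was between 0.41 and 0.48 in Pdpk1 KO libraries and between 0.62 and 0.86 in WT libraries. With the macrophage covariate Ripk3 was at -0.41 (adjusted p = 0.167), Traf3 at -0.35 (adjusted p = 0.209) and Daxx at 0.49 (adjusted p = 0.0544). Zbp1 and Mlkl, the other 2 necroptosis genes, did not pass the threshold.

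Casp2, an initiator caspase outside the set, had 1365 ± 118 normalized counts in Pdpk1 KO and 1385 ± 122 in WT (SD, n = 4 each). Its groups overlapped and it did not pass the threshold (log2 change -0.02, 95% interval -0.24 to 0.20, limma adjusted p = 0.936). Among 5 inflammatory caspase and gasdermin genes tested limma and edgeR called 0 (2 at an unadjusted p under 0.05) and DESeq2 called Casp1. The shares of all genes were 9.47% in limma (23.0% unadjusted), 9.06% in edgeR and 13.2% in DESeq2, and the list was not tested as a set. Casp1, named for its DESeq2 call, was lower in Pdpk1 KO there and at -0.69 in limma (adjusted p = 0.054). Of the 5 genes, 4 had negative log2 changes and 1 a positive one. Pycard, the inflammasome adaptor, was at -0.54 (limma adjusted p = 0.102). Gsdmd, the pore-forming gasdermin, was at -0.13 (limma adjusted p = 0.619), and at 0.07 with the macrophage covariate.

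None of the reported genes of the mitochondrial arm, the caspase inhibitors or the caspase substrates passed the threshold in limma. Of 9 genes of the mitochondrial pathway besides Casp9, limma, edgeR and DESeq2 each called 0, with 1 at an unadjusted p under 0.05 in limma. Bax, a pore-forming protein of the mitochondrial membrane, was at 0.17 (95% interval -0.06 to 0.40) and Cycs, cytochrome c, at 0.13 (95% interval -0.12 to 0.38). Of 5 genes listed as caspase inhibitors besides Cflar, limma and edgeR called 0, with 1 at an unadjusted p under 0.05, and DESeq2 called Birc3. Birc3, a ubiquitin ligase that acts on Ripk1, had 3999 ± 140 normalized counts in Pdpk1 KO and 3321 ± 99.9 in WT (SD, n = 4 each). Its groups did not overlap and its log2 change of 0.27 was just short of the threshold (limma adjusted p = 0.0514), while that of Birc6 was 0.12 (adjusted p = 0.612). Of 9 caspase substrates limma and edgeR called 0, with 3 at an unadjusted p under 0.05, and DESeq2 called Parp1. Sptan1 and Acin1, cut by caspases in dying cells, were at 0.10 and 0.20 (limma adjusted p = 0.599 and 0.206). Over all genes tested limma called 9.47%, edgeR 9.06% and DESeq2 13.2%, and limma had 23.0% at an unadjusted p under 0.05. These lists are short and were not tested as sets.

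**Figure D5:**
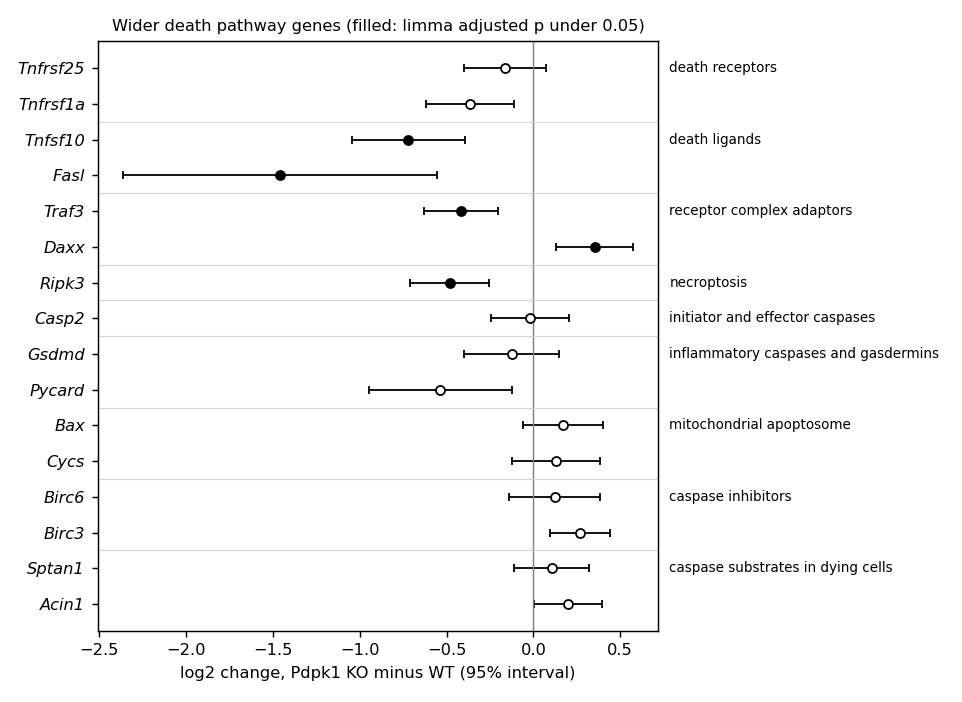
Log2 change with 95% interval (Pdpk1 KO minus WT) of genes named from 9 death pathway lists, grouped by list; filled points passed a limma adjusted p of 0.05. Tnfsf10, Fasl, Traf3 and Ripk3 lie left of 0 and Daxx right of it.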

How the data were processed

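Polyadenylated RNA of 8 sorted Treg libraries, 4 per group, was sequenced. The deposited values are a normalized signal: the authors' file name calls them DESeq2-normalized counts. Without settings, the submitters' processing notes list DESeq2 1.21, Subread 2.0.1 with featureCounts, STAR 2.7.6a, Trimmomatic 0.39, SAMtools 1.11 and the build GRCm38. The annotation release and strand setting are not given in the sources used here. Every value in each library was a whole multiple of its smallest positive value (tolerance 0.001), so whole reads were recovered, between 17448095 and 26299577 per library. A value of 0 allows up to 3 reads, for counting error only.

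Ensembl identifiers were matched to GENCODE M21 (19775 of 19826). Genes with a normalized count of at least 10 in at least 4 libraries were tested (13847; 5979 removed) with limma 3.58.1 in R 4.3.3 (lmFit, eBayes with trend) on log2(normalized count + 1), two-sided, with Benjamini-Hochberg adjustment over all of them and a threshold of 0.05. Log2 changes and folds are on that scale, Pdpk1 KO minus WT. For low genes they depend on the value added and on the tool. That of Fasl, -1.46 here, was -1.48 with 0.5 added and -1.34 with 5 added. In edgeR it was -1.31 and in DESeq2 -1.32. Pdpk1 and Foxp3 were also compared by an exact permutation test over 70 assignments, whose smallest p is 0.0286. Alternatives were other pseudocounts, no filter, quantile and TMM scaling, edgeR 4.0.16 and DESeq2 1.42.0 on recovered reads, a replicate block, each library left out, and macrophage markers as a covariate or by leaving out 3 libraries. The last 2 were repeated without Axl after its values were seen. The procedure was tested on simulated counts.

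The members and lists were chosen with earlier results of these data known. The named genes were the 7 members, Pdpk1 and Foxp3, up to 4 called genes of each pathway list with the smallest adjusted p (or the 2 of highest mean where none was called), and the 2 genes most like each called member. Results of some genes on these lists are not reported here, and counts over the lists leave them out. Other genes named were chosen after their values were seen. Marker lists of Treg, macrophages, B cells, CD8 T and NK cells, dendritic cells, neutrophils and monocytes, and erythroid cells were summed per library.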

Additional observations from a re-analysis of the deposited data

Results flagged for a closer look

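In 3 of the genes named, 1 WT library stood apart from the other WT libraries, by a gap above Dixon's 95% critical value for 4 samples. WT replicate 4 had 501.5 normalized counts of Fadd where the next WT library had 350.6. WT replicate 1 had 620.0 of Casp6 where the next had 701.5, and 869.2 of Tnfrsf1a where the next had 1090.0. Chance flags about 1 in 20 groups, and 50 groups of 4 were checked. Without WT replicate 4 the log2 change of Fadd was 0.41 (limma adjusted p = 0.158, range over its alternatives 0.158 to 0.783), while without WT replicate 1 that of Casp6 was -0.26 (limma adjusted p = 0.294, range over its alternatives 0.201 to 0.628). Without WT replicate 1 Tnfrsf1a was at -0.45 and passed the threshold (limma adjusted p = 0.0264, range over its alternatives 0.0104 to 0.329).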

How the results depend on the processing

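Of 20 alternatives, the 7 genes kept the direction of their log2 change in every one, but not its size. It lay between 0.0016 and 0.27 for Fas, 0.19 and 0.41 for Fadd, 0.13 and 0.36 for Ripk1, 0.28 and 0.41 for Casp8, -0.18 and -0.07 for Cflar, -0.59 and -0.15 for Casp9, and -0.42 and -0.14 for Casp6. The count of those called was 2 with the replicate block (Casp8 and Ripk1, where 18.3% of all genes were called), 0 with macrophage markers as a covariate or without the 3 libraries highest in them, with Axl in the list or not, and 0 to 1 when each library was left out. The 3 libraries were Pdpk1 KO replicates 2 and 3 and WT replicate 2, or, without Axl, Pdpk1 KO replicates 2, 3 and 4, which leaves 1 Pdpk1 KO library that is assumed to vary like WT. Over all genes the count of 1311 became 2535 with the replicate block, 538 with the covariate (517 without Axl) and 472 without the 3 libraries (458 without Axl), and 884 to 1312 when each library was left out. For the wider pathway the count of 5 became 10 in DESeq2, 15 with the replicate block, 0 with the covariate (0 without Axl), 0 without the 3 libraries (2 without Axl) and 2 to 10 when each library was left out, 10 without Pdpk1 KO replicate 4, 3 without Pdpk1 KO replicate 3 and 2 without WT replicate 2. The causes were not tested. Fits that leave libraries out also hold fewer samples, and no other 3 libraries were left out together. Leaving out each library put the called share of all genes between 6.38% and 9.47%. Same-numbered libraries share a number that the labels do not tie to a litter or day. The correlation of their deviations from the group means ran between 0.0481 and 0.217 over the 4 pairs. Pairs of unlike number ran between -0.156 and 0.109. Pdpk1 KO replicates 1, 3 and 4 each correlated best with the WT library of the same number. Pdpk1 KO replicate 2 correlated better with WT replicate 3 than with WT replicate 2 (0.109 and 0.0921). Pdpk1 was at 0.18 without the 3 libraries highest in markers other than Axl, Foxp3 at -0.0092 without Pdpk1 KO replicate 1, with a range of -0.0092 to 0.17 over the libraries left out, and -0.29 to -0.09 for Pdpk1. Casp2 was between -0.086 and 0.037 over the libraries left out and at 0.113 without the 3 libraries highest in markers other than Axl. Gsdmd was at 0.073 and 0.0818 with the covariate with and without Axl.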
